A study of Rattus norvegicus with 8 samples.

Results

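The 10 genes described here carry the prostanoid pathway: the prostacyclin receptor gene Ptgir, the prostaglandin E receptor genes Ptger1, Ptger2, Ptger3 and Ptger4, the prostaglandin F receptor gene Ptgfr, and the synthesis genes Ptgs1, Ptgds, Hpgds and Ptges. Their probes were found by the gene name printed in the scanner files, with the older name Ptgds2 standing for Hpgds. The set was chosen on these arrays, because Ptgir and Hpgds differed between the groups away from the outermost spot rows, so their differences are given as a description without a test. The 10 genes had 12 spots among the 15207 spots that are not controls, which carry 11717 named genes. Ptgds and Ptger2 had 2 spots each and the other 8 genes had 1. Of the 12 spots, 8, from 6 genes, passed the filter on dim probes, which asks that 4 or more of the 8 arrays show a signal well above background.

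Whole hippocampi of rats aged 2 months were profiled. The PNFLX group (4 samples) had been given fluoxetine, an antidepressant that blocks the serotonin transporter, at a dose of 10 mg/kg as pups, and the control group (4 samples) had been given the vehicle, sucrose in water at 5%. Treatment ran over postnatal days 2 to 21 in the protocol, while the sample descriptions give end days of 25 to 28 for PNFLX and 21 to 24 for control samples, one day later with each sample. Taken as written, the end day cannot be told apart from the group. Whether the numbered samples of a group are separate animals is not stated, so the errors measure the spread between these samples. Strain and sex are not used here.

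Prostanoids are lipid signals made from arachidonic acid, which phospholipases free from membranes and cyclooxygenases turn into a short-lived common precursor. Terminal synthases convert that precursor into prostaglandin D2, prostaglandin E2, prostaglandin F2alpha, prostacyclin or thromboxane, and each product acts on its own G protein-coupled receptors. In brain tissue, lipocalin-type prostaglandin D synthase is a product of leptomeninges, choroid plexus and oligodendrocytes that is secreted into cerebrospinal fluid, whereas the hematopoietic synthase encoded by Hpgds is known from microglia and mast cells. Prostacyclin is best known as a dilator of vessels and an inhibitor of platelets, and its receptor raises cyclic AMP.

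Each gene was read through probes of 60 bases. Shown here are the probes of the 2 genes that chose the set, and that of Ptgds, whose enzyme makes the same product as that of Hpgds. They are printed in lower case from 5′ to 3′ as the files give them.
Ptgir: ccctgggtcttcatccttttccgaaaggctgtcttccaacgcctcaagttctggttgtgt
Hpgds: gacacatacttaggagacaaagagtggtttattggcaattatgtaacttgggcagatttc
Ptgds: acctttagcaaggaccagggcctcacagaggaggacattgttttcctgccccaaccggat

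The files place the Ptgir probe at chr1:77314703-77314762 of the rat build rn4, listed with its lower coordinate first. The Hpgds probe is listed with its higher coordinate first at chr4:94856449-94859640, an interval of 3192 bases, and the Ptgds probe likewise at chr3:3633310-3633779, an interval of 470 bases. Both intervals are longer than the 60 bases of the probe, and no exon annotation of rn4 was used here, nor is a strand stated other than by the order of the coordinates. The longest run of bases shared with any probe of another sequence on the array was 13 for Ptgir, 12 for Hpgds and 14 for Ptgds. Hpgds and Ptgds, named alike in the files as Ptgds2 and Ptgds, shared no run of 8 bases or more. Both spots of Ptgds carried the same sequence, as did both spots of Ptger2, so that 12 spots held 10 sequences. GC content was 51.7% in the Ptgir probe, 38.3% in the Hpgds probe and 55% in the Ptgds probe.

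Levels are log2 of the processed signal minus the 75th percentile of that array, so that 0 stands for the array's 75th percentile, and differences are PNFLX minus control on that scale. A level is set only against the same spot on other arrays. That percentile was a signal of 873 to 941 on the PNFLX arrays and 654 to 880 on the control arrays, and 70.5% to 77.9% of the spots were well above background. All 8 arrays lay on 1 slide scanned on 1 day, with the PNFLX samples in slide row 2 and the controls in slide row 1, so a difference between the groups cannot be told apart from one between slide rows. In the fit of limma over 11600 spots, 78 passed a Benjamini-Hochberg adjusted p of 0.05, 43 higher and 35 lower in PNFLX, and 1448 had an unadjusted p under 0.05. Of the 78, 33 lay in the first 5 of 192 spot rows and 20 in the last 5, where 12.4% and 7.22% of spots passed, against 0.0967% in rows 21 to 172. The median log2 difference was 0.75 in the first 5 rows, -0.79 in the last 5 and -0.05 in rows 21 to 172. Markers of hippocampal neurons and glia were measured: Neurod1, a transcription factor of granule neurons, was at 0.54 in PNFLX and 0.61 in control samples, and Gfap, of astrocytes, at 0.90 in PNFLX and 1.21 in control samples.

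Ptgir, the Gs-coupled receptor for prostacyclin, had log2 levels of -4.37, -4.47, -4.22 and -4.60 in PNFLX samples 1 to 4, against -3.09, -3.51, -3.46 and -3.24 in control samples 1 to 4. Every PNFLX sample lay below every control sample, and within each group the values spread over less than 0.5 log2 units. The means were -4.41 ± 0.16 in PNFLX and -3.32 ± 0.19 in control samples (SD, n = 4 each), a log2 difference of -1.09 (SE 0.15), or 2.13-fold lower in PNFLX. The spot lay in row 170, within the rows away from the ends, where the median difference of the 66 kept spots of that row was 0.09. Among the 90 kept spots within 5 rows and 5 columns of it the differences ran between -1.54 and 1.63 with a median of 0.08, and 2 of the 90 were lower than that of Ptgir. All 8 Ptgir spots were well above background, but the spot was dim: its raw brightness was 77.3 to 103 on PNFLX arrays and 113 to 145 on control arrays, at 3.42 to 4.49 times the local background in PNFLX and 4.69 to 5.73 times in control samples.

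Hpgds, the glutathione-requiring prostaglandin D synthase, stood the other way, with log2 levels of -2.81, -3.20, -2.65 and -2.98 in PNFLX samples 1 to 4, against -3.81, -4.38, -4.51 and -4.36 in control samples 1 to 4. Every PNFLX sample lay above every control sample, and control 1 was the control nearest to them. The means were -2.91 ± 0.24 in PNFLX and -4.26 ± 0.31 in control samples (SD, n = 4 each), a log2 difference of 1.35 (SE 0.20), or 2.56-fold higher in PNFLX. The spot lay in row 179, outside the last 5 rows but nearer the end than Ptgir, and the median difference of the 58 kept spots of that row was 0.33. In rows 173 to 187, 6 of 894 kept spots (0.671%) passed in limma, Hpgds among them, against 0.0967% in rows 21 to 172. The median difference in rows 173 to 187 was 0.19. Of the 87 kept spots within 5 rows and 5 columns, with a median of 0.18 and a range of -1.90 to 3.10, 2 were higher than Hpgds. This spot was dim as well, with a raw brightness of 123 to 156 on PNFLX arrays and 73.3 to 90.6 on control arrays. That was 3.84 to 6.36 times the local background in PNFLX and 3.06 to 3.36 times in control samples.

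**Figure D1:**
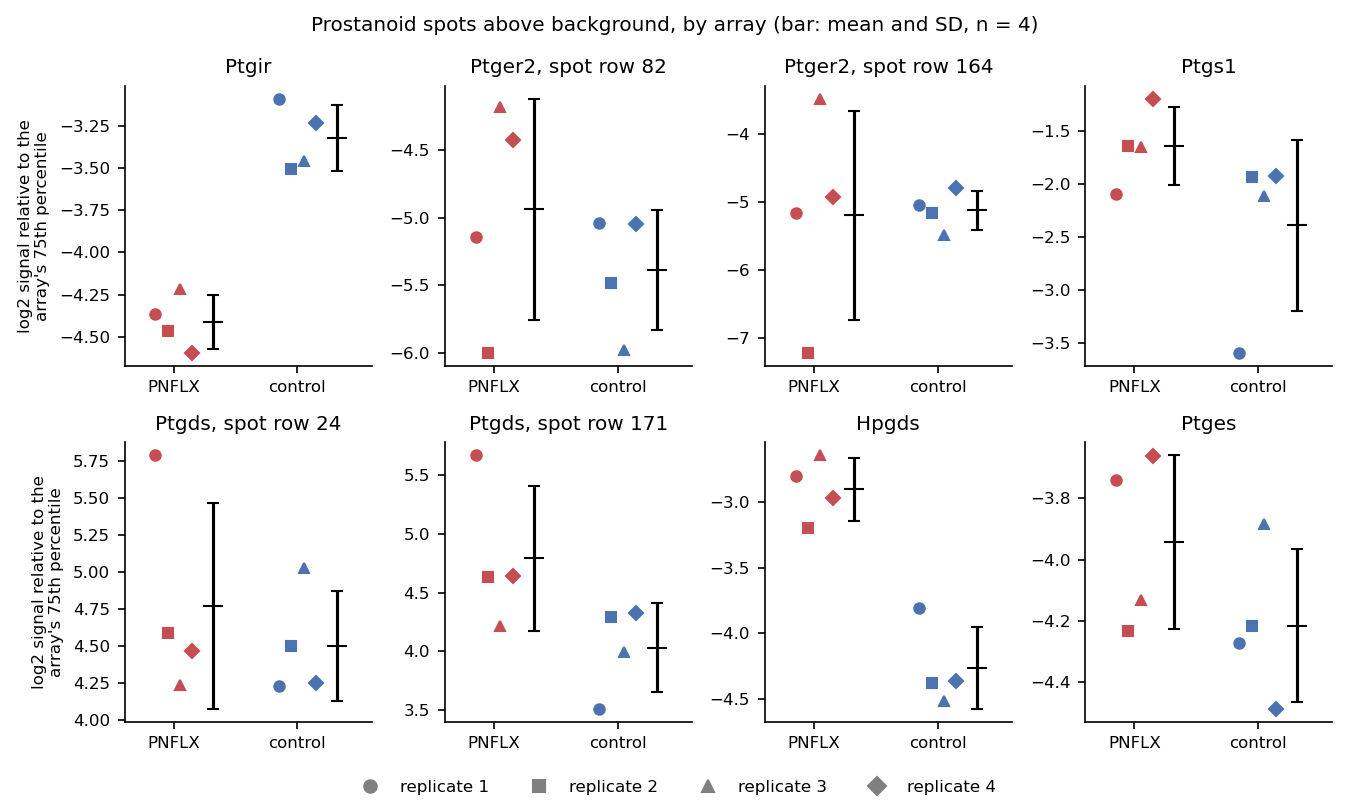
Log2 signal relative to the array's 75th percentile for the 8 prostanoid spots that passed the filter, each panel with its own vertical scale, with PNFLX arrays in red and control arrays in blue (n = 4 each) and the mean with its SD beside them. The PNFLX values of Ptgir lie between -4.60 and -4.22, all below the controls, those of Hpgds between -3.20 and -2.65, all above the controls, and in the other 6 panels the groups overlap.

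The processed signal comes from a background-subtracted signal that the scanner software divides by a smooth surface fitted over the array, and this surface also differed between the groups at both spots. At the Hpgds spot the background-subtracted signal was 57.9, 59.8, 89.4 and 80.1 on PNFLX arrays 1 to 4, against 34.6, 37.8, 30.8 and 28.8 on control arrays 1 to 4, without overlap. The surface factor at that spot was 0.439 to 0.676 on PNFLX arrays and 0.685 to 0.919 on control arrays. Of the log2 difference, 1.1 was present in the background-subtracted signal, division by the surface added 0.55, and scaling of the arrays to their percentile took off 0.30. At the Ptgir spot the background-subtracted signal was 44.4, 37.3, 39.9 and 30.1 on PNFLX arrays 1 to 4, against 95.9, 93.6, 75.1 and 65.5 on control arrays 1 to 4, also without overlap. There the surface factor was 0.780 to 0.994 on PNFLX arrays and 0.942 to 1.21 on control arrays. The difference of -1.12 in the background-subtracted signal was reduced by 0.33 in the division and enlarged again by the scaling. With the arrays taken before this division and scaled anew, an alternative chosen after seeing the data, Ptgir was at -1.43 and Hpgds at 0.79. The part of the surface in the group differences was not tested.

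**Figure D2:**
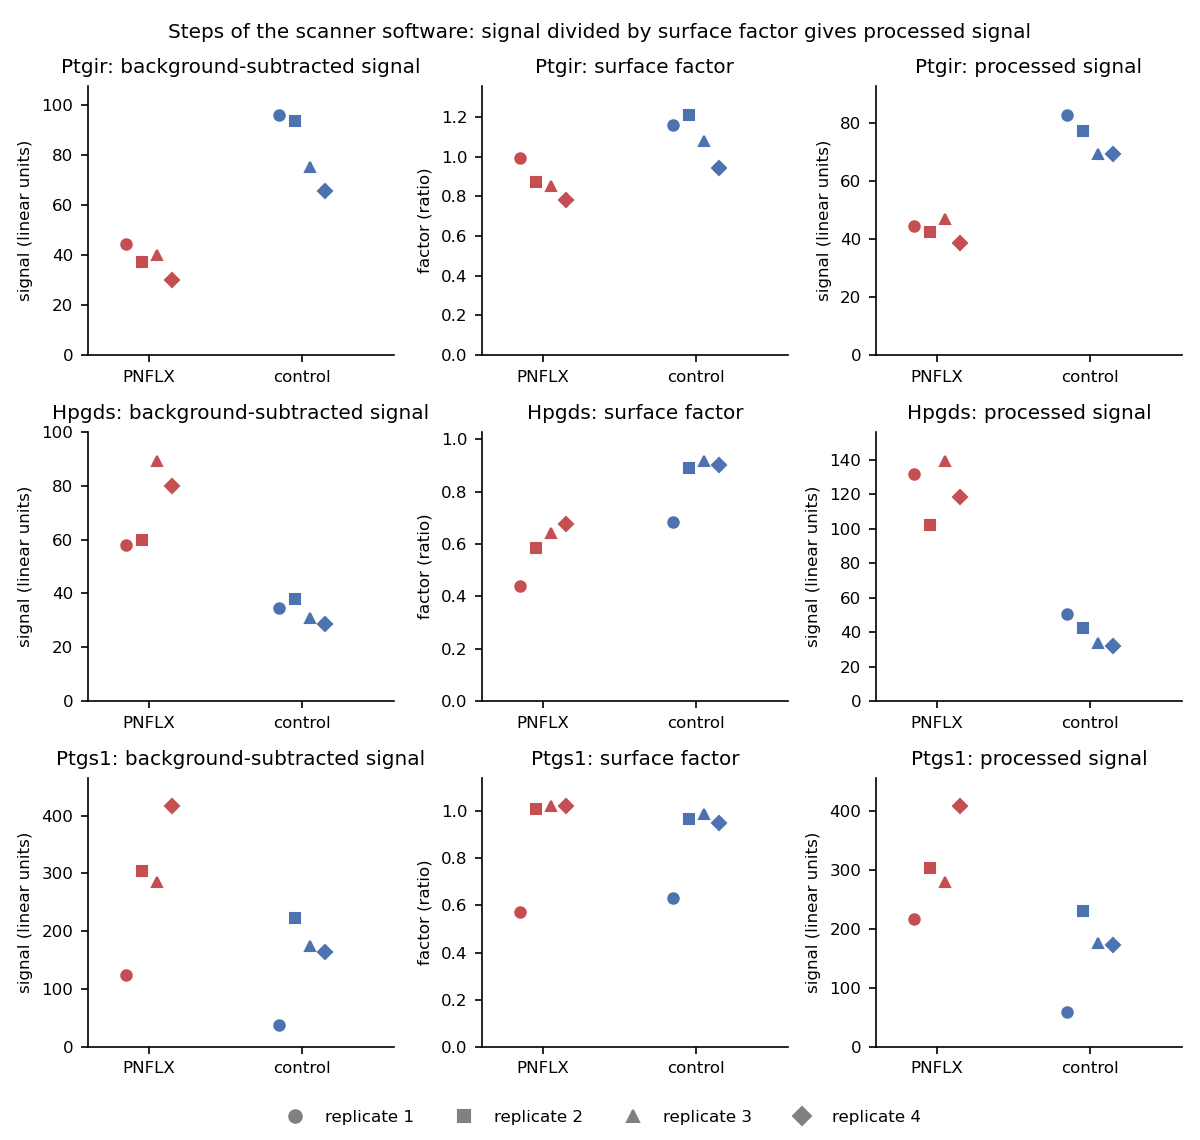
Background-subtracted signal (left), surface factor (middle) and processed signal, their quotient (right), in linear units on axes from 0, for Ptgir, Hpgds and Ptgs1 on each PNFLX array (red) and control array (blue). The background-subtracted signal of Hpgds is 57.9 to 89.4 on PNFLX arrays and 28.8 to 37.8 on control arrays, and replicate 1 of both groups has the lowest surface factor at the Hpgds and Ptgs1 spots.

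Of the prostaglandin E receptors, only Ptger2 passed the filter. Ptger2 encodes the EP2 receptor, which couples to Gs and raises cyclic AMP. Its spot in row 82 had log2 levels of -5.14, -6.00, -4.18 and -4.42 in PNFLX samples 1 to 4, against -5.04, -5.48, -5.98 and -5.05 in control samples 1 to 4. The control values all lay within the range of the PNFLX values, and the log2 difference was 0.45 (95% interval -0.49 to 1.38). The spot of the same sequence in row 164 had -5.17, -7.22, -3.48 and -4.92 in PNFLX samples 1 to 4, against -5.05, -5.16, -5.48 and -4.80 in control samples 1 to 4. Here the PNFLX values lay on both sides of the controls, and the log2 difference was -0.07 (95% interval -1.61 to 1.47). PNFLX 2 was the lowest and PNFLX 3 the highest PNFLX sample at both spots. Both lay near the limit of detection: 4 PNFLX and 3 control arrays were well above background in row 82, and 3 of each group in row 164. On a single array the 2 spots differed by up to 1.22 log2 units. With both spots averaged, an alternative chosen after seeing the data, the log2 difference was 0.19 (95% interval -1.01 to 1.39), which leaves room for a change of over 2-fold either way.

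The remaining receptors were not measured above background in enough samples to be compared. Ptger3, whose product couples mainly to Gi, Ptger4, which like Ptger2 raises cyclic AMP, and Ptgfr, the Gq-coupled receptor for prostaglandin F2alpha, were well above background on 0 of 8 arrays. Ptger1, whose product acts through calcium, was well above background on 1 PNFLX and 1 control array. Ptger3 had log2 levels of -7.34, -7.36, -6.53 and -6.68 in PNFLX samples 1 to 4, against -6.73, -4.87, -6.64 and -6.18 in control samples 1 to 4. The highest of these, control 2, had a background-subtracted signal of 10.8 divided by a surface factor of 0.358. Ptgfr had -7.01, -7.54, -4.08 and -7.13 in PNFLX samples 1 to 4, against -8.33, -8.00, -7.28 and -7.08 in control samples 1 to 4. PNFLX 3 stood alone at this spot, in row 189 of 192, while the other 3 PNFLX samples overlapped with the controls. Ptger1 ranged between -6.53 and -5.84 in PNFLX and between -6.86 and -5.57 in control samples, and Ptger4 between -7.71 and -6.93 in PNFLX and between -8.69 and -6.43 in control samples. No fold change is given for these 4 receptors.

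**Figure D3:**
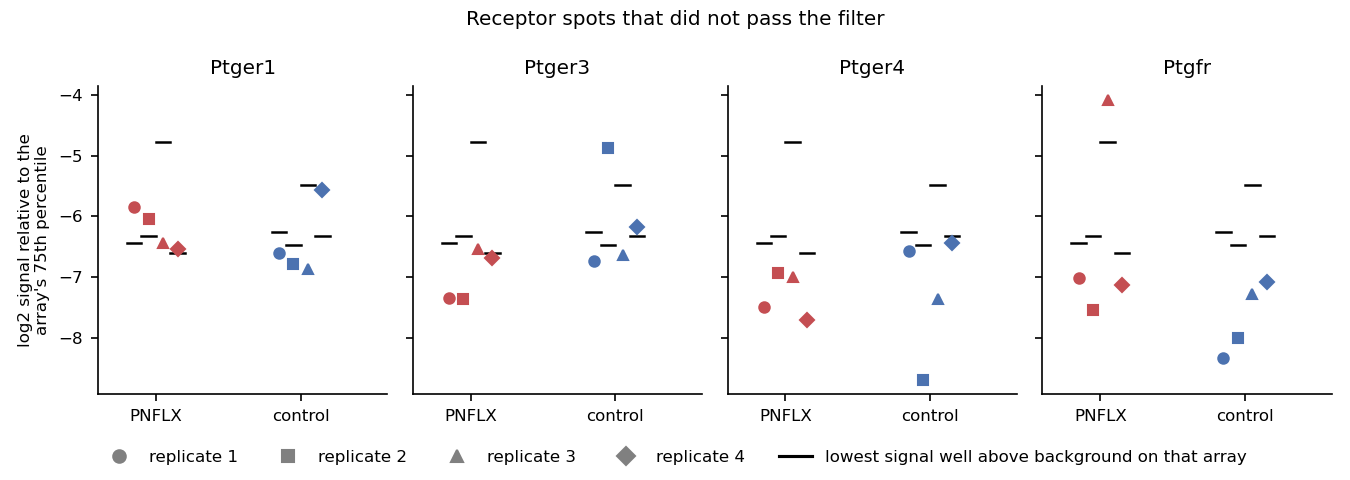
Log2 signal relative to the array's 75th percentile for the 4 receptor spots that did not pass the filter, with PNFLX arrays in red and control arrays in blue, and a black dash at the lowest signal that counted as well above background anywhere on that array. The values of Ptger1, Ptger3, Ptger4 and Ptgfr scatter around or below the dashes, apart from single arrays such as PNFLX 3 for Ptgfr at -4.08 and control 2 for Ptger3 at -4.87.

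Ptgs1, the constitutive cyclooxygenase, had log2 levels of -2.09, -1.64, -1.65 and -1.20 in PNFLX samples 1 to 4, against -3.59, -1.93, -2.11 and -1.92 in control samples 1 to 4. The groups overlapped, since PNFLX 1 lay below control 2 and control 4, and control 1 lay far below the other controls. The means were -1.64 ± 0.37 in PNFLX and -2.39 ± 0.81 in control samples (SD, n = 4 each), and the log2 difference of 0.75 (95% interval -0.15 to 1.64) became 0.35 without control 1. The spot lies in the first spot column, where the surface factor was 0.573 on PNFLX 1 and 0.633 on control 1 but 0.951 to 1.02 on the other 6 arrays. The background-subtracted signal of control 1 was already the lowest, at 37.0, against 164 to 223 in the other controls.

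Ptgds, the lipocalin-type prostaglandin D synthase, gave strong signals on all arrays. In row 24 the log2 levels were 5.79, 4.59, 4.23 and 4.47 in PNFLX samples 1 to 4, against 4.23, 4.50, 5.03 and 4.25 in control samples 1 to 4. In row 171 they were 5.67, 4.64, 4.22 and 4.64 in PNFLX samples 1 to 4, against 3.51, 4.29, 4.00 and 4.33 in control samples 1 to 4. PNFLX 1 was the highest sample at both spots, and the groups overlapped at both. The log2 difference was 0.27 (95% interval -0.54 to 1.07) in row 24 and 0.76 (95% interval 0.02 to 1.5) in row 171, a gap of 0.49 between spots of 1 sequence. Over the array, 1488 pairs of kept spots shared a sequence, with a median gap of 0.22, and 23.8% of the pairs had a larger gap than Ptgds. Without PNFLX 1 the differences were -0.07 in row 24 and 0.47 in row 171. With both spots averaged the log2 difference was 0.51 (95% interval -0.22 to 1.25).

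Markers of the leptomeninges were high in the same sample. Over the 11 measured of 12 leptomeningeal fibroblast markers, the mean deviation from each gene's average was 1.04 log2 units in PNFLX 1, while the other PNFLX samples lay between -0.16 and -0.08 and the controls between -0.55 and 0.12, with control 1 lowest. Col1a2, a fibrillar collagen, was at 2.05 in PNFLX and 0.73 in control samples on average (difference 1.32, SE 0.58), and Col1a1 at -0.23 in PNFLX and -0.48 in control samples. The choroid plexus markers, of which 6 of 11 were measured, ranged between -1.0 and 0.86 in PNFLX samples, with PNFLX 1 highest, and between -1.52 and 3.14 in control samples, with control 4 highest. Kl, Clic6, Kcne2 and Slc4a5 of that list were not above background. Ttr, the transthyretin gene of the choroid plexus, averaged -1.36 in PNFLX and -0.21 in control samples (difference -1.15, SE 1.8). Oligodendrocyte markers (9 of 10 measured, Mbp among them) ranged between -0.37 and 0.07 in PNFLX and between -0.10 and 0.34 in control samples. By direction, 9 of 11 leptomeningeal markers were higher in PNFLX. Lower were 6 of 6 choroid plexus and 8 of 9 oligodendrocyte markers, where 54.1% of all measured genes were lower. In whole tissue, a different number of cells and a different level per cell cannot be told apart, and the part of these cell types in the Ptgds values was not tested.

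Ptges, the inducible microsomal prostaglandin E synthase, had log2 levels of -3.74, -4.23, -4.13 and -3.66 in PNFLX samples 1 to 4, against -4.27, -4.22, -3.88 and -4.49 in control samples 1 to 4. The samples of both groups interleaved, and the log2 difference was 0.27 (95% interval -0.17 to 0.71). None of the 6 kept spots of Ptger2, Ptgs1, Ptgds and Ptges passed the threshold (limma adjusted p between 0.388 and 0.973). The place of the other 2 kept spots, those of Ptgir and Hpgds, among the 78 that passed (0.672% of 11600) follows from the choice of the set and is no result about it. That place also depended on the processing: of 22 alternatives, the limma adjusted p stayed under the threshold in 13 for Ptgir and in 10 for Hpgds. Without the first and last 5 spot rows it was 0.0952 for both. Over all kept spots the groups did not overlap in 10.7%, and among the prostanoid spots in these same 2. By the brightest kept spot of each gene, 2 of the 6 genes (Ptgir and Ptger2) were lower in PNFLX, where 54.1% of all 8890 measured genes were lower. Of these, Ptgir was used to choose the set, and Ptger2 was at -0.07 in row 164 but at 0.45 in row 82.

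The surrounding pathway was described with 7 lists of 72 genes, of which 48 were measured. Of these, 20 were higher and 28 (58.3%) lower in PNFLX, near the 54.1% lower among all measured genes. In limma 0 of the 48 passed the threshold, where 0.562% of all measured genes passed, and 5 (10.4%) had an unadjusted p under 0.05, against 12.4% of all measured genes. Among the 5 measured of 7 other synthesis enzymes (median difference 0.03), Ptgs2, the inducible cyclooxygenase, was at 0.07 in PNFLX and -0.84 in control samples on average, a difference of 0.91 (SE 0.27, limma adjusted p = 0.225). Akr1b1, an aldose reductase that can form prostaglandin F2alpha, differed by 0.31 (SE 0.23). Ptgis, the prostacyclin synthase that makes the ligand of the Ptgir product, differed by -0.26 (SE 0.34), with -4.10 in PNFLX and -3.84 in control samples. The spot of Ptgs2 lay in row 6 and that of Akr1b1 in row 189.

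Upstream, 10 of 16 genes of arachidonic acid release were measured (median difference -0.07). Pla2g4a, the cytosolic phospholipase A2 that frees arachidonic acid, averaged -3.22 in PNFLX and -4.14 in control samples, a difference of 0.92 (SE 0.18, limma adjusted p = 0.0771) from a spot in row 183. Pla2g1b, a secreted phospholipase A2, differed by 0.75 (SE 0.21) in row 16, and Daglb, a diacylglycerol lipase, by -0.19 (SE 0.15) in row 81. Of the genes of breakdown and transport, 5 of 7 were measured (median difference -0.10). The smallest p in that list was that of Ptgr2, a prostaglandin reductase gene, at -0.23 (SE 0.14), followed by the carbonyl reductase genes Cbr3 at 0.48 (SE 0.43) and Cbr1 at -0.10 (SE 0.14).

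Of the other receptors and partners, 3 of 5 were measured (median difference 0.03). Tbxa2r, the thromboxane receptor gene, differed by -0.17 (SE 0.23), Ptgdr2, a prostaglandin D2 receptor gene, by 0.27 (SE 0.42), and Ptgfrn, a partner of the prostaglandin F receptor, by 0.03 (SE 0.15). Ptgdr, the other receptor for prostaglandin D2, was on the array but not above background. Of the G proteins, 10 of 12 were measured, 7 of them lower in PNFLX (median difference -0.27), with Gnal at -0.40 (SE 0.20), Gna11 at -0.35 (SE 0.21) and Gnb2 at -0.44 (SE 0.28). The lipoxygenase and leukotriene genes (6 of 12 measured, median difference -0.17) included Ltc4s, the leukotriene C4 synthase, at -0.26 (SE 0.15), Alox5 at -0.89 (SE 0.95) and Ephx2, an epoxide hydrolase, at -0.22 (SE 0.27). Of the inflammatory inducers and inhibitors, 9 of 13 were measured (median difference 0.00), with Nfkb1 at -0.71 (SE 0.27, row 8), Il1rn at -0.39 (SE 0.16) and Tlr4 at 0.45 (SE 0.20). Over all measured genes the median difference was -0.03.

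**Figure D4:**
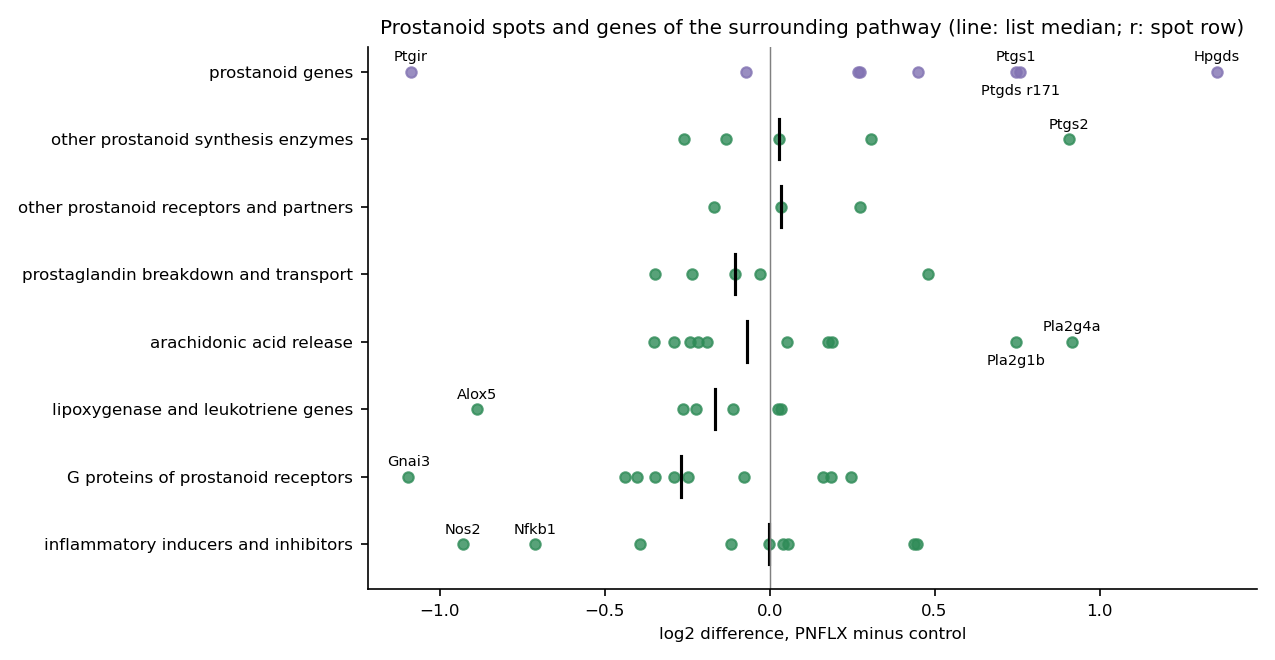
Log2 difference (PNFLX minus control) of the 8 kept prostanoid spots (purple) and of the measured genes of 7 surrounding pathway lists (green, brightest kept spot of each gene), with a black line at each list's median. Ptgir at -1.09 and Hpgds at 1.35 lie at either end of the prostanoid spots, and the list medians lie between -0.27 and 0.03.

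Cell types known to carry Hpgds and Ptgir were compared over the same arrays. Microglia markers (10 of 12 measured) ranged between -0.15 and 0.09 in PNFLX and between -0.07 and 0.32 in control samples as mean deviations, with Aif1 at 2.35 in PNFLX and 2.59 in control samples and Itgam at -5.01 in PNFLX and -4.85 in control samples. Mast cell markers (4 of 9 measured) ranged between -0.41 and 0.37 in PNFLX and between -0.42 and 0.19 in control samples. Cpa3, Fcer1a, Ms4a2 and Cma1, defining genes of mast cells, were not above background. Kit averaged -3.40 in PNFLX and -3.49 in control samples. Tpsab1, from a spot in row 189, averaged 1.59 in PNFLX and 1.17 in control samples. Of the 4 measured mast cell genes, 3 were higher and 1 lower in PNFLX, the lower being Tpsb2 at -0.41 (SE 0.13). Smooth muscle and pericyte markers (7 of 9 measured) ranged between -0.22 and 0.44 in PNFLX and between -0.26 and 0.14 in control samples, with Tagln at -0.95 in PNFLX and -1.05 in control samples and Myh11 at -1.71 in PNFLX and -1.65 in control samples. Endothelial markers (9 of 11 measured) ranged between -0.29 and 0.10 in PNFLX and between -0.09 and 0.10 in control samples, with Cdh5 at -4.92 in PNFLX and -4.48 in control samples and Cldn5 at 2.45 in PNFLX and 2.55 in control samples. In each of these 4 lists the groups overlapped.

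The astrocyte list (7 of 8 measured) ranged between -0.22 and 0.15 in PNFLX and between -0.34 and 0.18 in control samples, with Gfap at 0.90 in PNFLX and 1.21 in control samples and Aqp4 at -2.38 in PNFLX and -3.46 in control samples. The blood list (4 of 6 measured) ranged between -0.36 and 0.66 in PNFLX, with PNFLX 1 highest, and between -0.28 and -0.02 in control samples, with Hbb at -0.70 in PNFLX and -0.74 in control samples and Alas2 at -0.96 in PNFLX and -1.36 in control samples. Neuron markers (11 of 12 measured) ranged between -0.40 and 0.02 in PNFLX and between 0.04 and 0.27 in control samples, the only one of the 17 lists whose groups did not overlap. This rested on 1 gene, Dkk3, at -2.20 in PNFLX and 1.1 in control samples from a spot in the last row. Without Dkk3 the list ranged between -0.33 and 0.13 in PNFLX and between -0.09 and 0.13 in control samples, with overlap, an alternative chosen after seeing the data. Prox1 was at -4.75 in PNFLX and -5.14 in control samples. Its spot lay in row 3, within the first 5 rows, and was well above background on 3 PNFLX arrays and 1 control array. Of the 78 measured marker genes of the 10 lists 0 passed the threshold in limma, a count that the 0.562% of all genes that passed does not set apart, and the part of cell composition in the prostanoid values was not tested.

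The probes whose profile over the 8 arrays lay nearest to that of Ptgir, after each was centred on its own mean, were those of the olfactory receptor gene Or4x11 (mean absolute difference 0.10 log2 units, row 176), the translation initiation factor gene Eif3d (0.13, row 38) and the T cell coreceptor gene Cd8b (0.14, row 179). Their log2 differences between the groups were -1.14 for Or4x11, -0.89 for Eif3d and -1.19 for Cd8b. Nearest to Hpgds were the olfactory receptor gene Or5w11 (0.12, row 18), the matrix metalloproteinase gene Mmp15 (0.18, row 2) and the deacetylase gene Sirt1 (0.22, row 159), with log2 differences of 1.37 for Or5w11, 1.27 for Mmp15 and 0.95 for Sirt1. These nearest probes were found among 11246 kept spots with a value on every array. As they were chosen for nearness over these same arrays, their like group differences follow from that choice.

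The direction of Hpgds turned with the normexp background correction of all spots, where it was at -0.39 (SE 0.61). This was 1 of 22 alternatives, many of which could not turn the sign, as set out below. In that correction the background estimated for control 1 was -1106, while on the other 7 arrays it lay between 3.80 and 13.1. Control 1 held 11 spots dimmer than their own local background. In an alternative chosen after seeing the data, such spots took the array's median background for the estimate and were then left out. The estimate for control 1 was then 11.6, and Hpgds was at 0.30 (SE 0.12), while Ptgir was at -0.74 (SE 0.11). Normexp starts from the raw signal and so omits the software's surface, and its added offset of 50 draws the differences of dim spots towards 0. The part of the surface or of the offset in these values was not tested. Ptgir was lower in PNFLX in all 22 alternatives, between -1.43 and -0.74. Many of the 22 could not turn the sign of either gene. Changes of only the filter, flags, probe choice, spot rows, block or averaging, and the deposited log2 values, left both differences as reported. Leaving out 1 sample cannot turn a sign where the groups do not overlap. These counts of directions are therefore no measure of how firm the directions are.

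**Figure D5:**
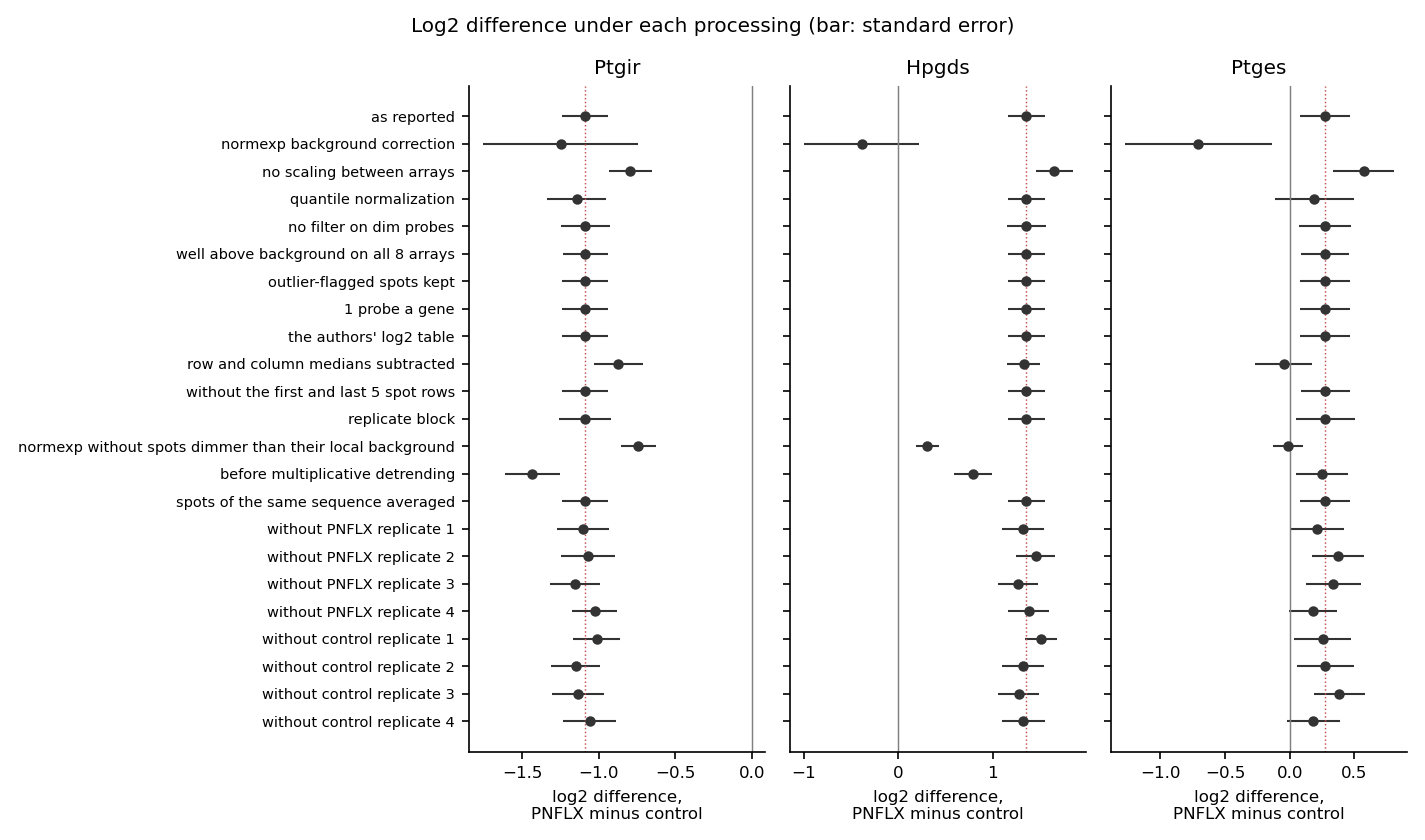
Log2 difference (PNFLX minus control, with its standard error) of Ptgir, Hpgds and Ptges as reported and under each alternative processing, including the omission of each sample, with a dotted line at the reported value. Ptgir stays below 0 throughout (-1.43 to -0.74), Hpgds lies between 0.30 and 1.65 apart from -0.39 with the normexp correction of all spots, and Ptges lies on both sides of 0. Settings that change only the filter, flags, probe choice, spot rows or block leave the differences of Ptgir and Hpgds as reported.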

How the data were processed

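Members and gene lists were chosen with earlier results of these data known. Every sample's RNA, labelled with Cy3, was read on an Agilent array of 1 colour. The intensity values were made with Agilent Feature Extraction 10.5.1.1, per the file headers, with background subtraction and a division by a fitted surface within each array. In the deposited columns, the background-subtracted signal divided by that surface matched the processed signal within 1% in 99.7% of kept spot values. A table of log2 values was deposited as well. Setting it against the scanner files, its values equalled the ones used here with the median of each probe subtracted, within 0.00241. Its column medians were -0.04, -0.07, 0.10 and -0.13 for PNFLX 1 to 4 and 0.06, -0.05, 0.04 and 0.04 for controls 1 to 4.

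The processed signal was put on the log2 scale, and each array's 75th percentile over its 15207 spots that are not controls was subtracted. Outlier-flagged spots (521) were left out, and 11600 probes well above background on at least 4 arrays were fitted with limma 3.58.1 in R 4.3.3 (group as the term, empirical Bayes, Benjamini-Hochberg over all 11600, threshold 0.05). Each spot was its own row, and in lists the brightest kept spot of a gene was used. SE is limma's moderated standard error. Gene symbols came from the files and from RefSeq genes of assembly GRCr8, which gave names and no coordinates (14323 spots named). All prostanoid genes are named, then in each pathway list the 3 genes of smallest p, in each marker list the first 2 measured (1 of them is not reported here), and the 3 probes nearest in profile to Ptgir and to Hpgds. Dkk3 and Tpsb2 were named after their values were seen. Alternatives changed the background correction, scaling, filter, flags, probe choice, spot rows, surface, block and samples. The number of arrays limits the precision.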

Additional observations from a re-analysis of the deposited data

Results flagged for a closer look

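Among the 8 kept prostanoid spots, each group of 4 samples was searched for a sample far from the others, 16 groups in all, of which chance marks about 1 in 20. The log2 level of Ptgs1 in control 1, at -3.59, stood apart: its gap to the nearest control made up 0.888 of the range of the controls. Ptgs1 was 0.75 higher in PNFLX with this sample and 0.35 without it (SE 0.22), and passed the threshold in neither case. The part of the spot's place in the first spot column was not tested.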

How the results depend on the processing

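Of 11600 spots, 78 passed in limma. The count was 50 with normexp, of which 14 were higher in PNFLX, 143 without scaling between arrays (120 higher), 46 without the filter on dim probes (33 higher), 47 with spots well above background on all 8 arrays, and 27 after subtracting row and column medians (12 higher). Without the first and last 5 spot rows 0 of 11056 passed in limma, where the lowest adjusted p was 0.0952 and 1261 spots had an unadjusted p under 0.05. Of the alternatives chosen after seeing the data, normexp without spots dimmer than their local background gave 469, the signal before the surface division 422, and averaged spots of 1 sequence 62 of 9986. Leaving out 1 sample gave 33 to 104: 48, 37, 104 and 50 without PNFLX 1 to 4, and 46, 50, 35 and 33 without controls 1 to 4. The median difference of all spots was 0.26 without scaling and -0.38 with normexp, against -0.03 as reported.

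Ptgir was at -0.79 without scaling, -0.87 after subtracting row and column medians, -0.74 with normexp without the dimmer spots, -1.43 before the surface division, and -1.15 to -1.01 with 1 sample left out. Hpgds was at -0.39 with normexp, 0.30 with normexp without the dimmer spots, 0.79 before the surface division, and 1.27 to 1.51 with 1 sample left out. Of the 6 genes, 2 were lower in PNFLX, which became 5 with normexp, 1 without scaling, 1 of 5 with spots above background on all 8 arrays, 1 with spots of 1 sequence averaged, and 1 to 3 with 1 sample left out. The sign turned with normexp for Ptger2 in row 82 (-0.75), Ptgs1 (-0.21) and Ptges (-0.71), for Ptges also after row and column medians (-0.047) and with normexp without the dimmer spots (-0.013), and for Ptger2 in row 164 without scaling (0.22). With 1 sample left out, Ptger2 in row 164 ran between -0.65 and 0.60 and Ptgds in row 24 between -0.073 and 0.45. The limma adjusted p of Ptgir lay between 0.00506 and 0.519 over all alternatives and that of Hpgds between 0.00697 and 0.694, and with 1 sample left out it was under the threshold in 3 of 8 cases for Ptgir and 2 of 8 for Hpgds. The highest values came with normexp. The causes were not tested beyond the values given in the text.

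With the replicate number as a block (replicate block), 13 spots passed, and Ptgir and Hpgds were not among them (limma adjusted p = 0.145 for Ptgir and 0.125 for Hpgds). The replicate number is also the slide column, so samples of 1 number lay in the same column of the slide. They deviated together only weakly (correlations 0.00813 to 0.0921), and not every sample correlated best with its own number. Weak correlations over all spots cannot decide whether the numbers pair the samples, and the part of the slide column was not tested.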
